A study of Mus musculus with 6 samples.

Results

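Sim2 belongs to the bHLH-PAS transcription factors, and 10 genes of that family were followed here: Sim1, Sim2, Ahr, Ahrr, Arnt, Arnt2, Arntl, Clock, Npas2 and Npas3. They were read by every probe set whose platform annotation gave exactly 1 gene symbol from this group, which was 27 of the 45101 probe sets on the array, and by 10 of the 18193 genes tested. The family was picked because Sim2 was among the largest rises of the comparison, so the change of Sim2 is described without a test. The cells were 344SQ, a murine lung cancer line. They carried a control shRNA (3 arrays) or an shRNA against Pik3ca, the gene of the p110-alpha subunit of phosphoinositide 3-kinase (PIK3CA shRNA, 3 arrays), introduced with a lipid reagent, and were kept in serum-containing RPMI. The labels do not say whether the cells were a pool or a clone, how long after transfection they were taken, or whether the replicates were separate cultures. The p-values therefore describe only how these samples vary, and that variation may be technical.

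bHLH-PAS proteins bind DNA as pairs. One partner is regulated: AHR by small ligands, the HIF subunits by oxygen, SIM1 and SIM2 by the developmental stage and tissue in which they are made, and CLOCK or NPAS2 within the circadian loop. The other is a broadly made partner, ARNT or ARNT2 for most of the family and ARNTL (BMAL1) for the clock. In lung epithelium AHR is known for inducing enzymes that process aromatic compounds.

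Values are linear intensities as deposited. A change is the PIK3CA shRNA mean less the control mean of log2(intensity + 16), where the added 16 shrinks the change of dim genes. A gene is represented by its brightest probe set unless another is named. Adjusted p-values come from a limma fit over all genes with Benjamini-Hochberg adjustment, and a gene rose or fell where this was below 0.05. The intensity of a probe set depends on its own sequence, so no gene's level is set against that of another single gene. For the same reason a place above or below the median brightness of all genes, and an intensity summed over a list, are only rough guides. The median intensity per array was 134.1 to 134.7. Pik3ca fell to 51.9% of control (change -0.94, adjusted p = 0.000762). Of the 6 epithelial markers, 4 were above the median brightness of all genes, with Krt8 at 11901 and Cdh1 at 11343 in control cells, and 0 rose or fell by limma (0 higher and 1 lower at unadjusted p under 0.05). Of 8 markers of lung epithelial lineages only Sftpb was above that median, and Nkx2-1, the lung lineage factor, read 116.2 in control and 101.6 in PIK3CA shRNA cells. Neuronal markers are listed because neurons make Sim1, Arnt2 and Npas3: 0 of 6 were above the median, their summed intensity was 629.6 to 700.5 in control and 621.5 to 685.2 in PIK3CA shRNA arrays, and 1 of them, Tubb3, fell (-1.41). Of the 5 skeletal muscle, 5 leukocyte and 6 fibroblast markers 0 were above the median brightness, and of 5 endothelial markers 1 was, Kdr. The fibroblast marker Dcn fell (-0.75, adjusted p = 0.00918) and Lum was lower on every PIK3CA shRNA array (-0.39, adjusted p = 0.0900), with a summed intensity of the list of 660.5 to 679.0 in control and 452.7 to 747.3 in PIK3CA shRNA arrays. The endothelial markers Pecam1 (-0.80, adjusted p = 0.0905) and Cdh5 (0.47, adjusted p = 0.0950) differed in opposite directions without passing. The markers' part in the results below was not tested.

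Sim2 was the member with the large difference. Its brightest probe set read 61.2, 38.2 and 47.1 on the control arrays and 813.9, 802.3 and 828.4 on the PIK3CA shRNA arrays. The lowest PIK3CA shRNA value was thus far above the highest control value, and the control values lay near the lower quartile of the array, which was 37.5 to 37.6. The means were 48.8 ± 11.6 and 815 ± 13.0 (SD, n = 3 each), a change of 3.69 with a standard error of 0.13. The second Sim2 probe set, designed on the same transcript record, gave 40.3, 18.3 and 36.5 in control and 518.2, 454.8 and 428.7 in PIK3CA shRNA cells, a change of 3.37. Both probe sets therefore gave the same direction and a similar size. The size depended on the pseudocount: the brightest probe set changed by 4.06 with a pseudocount of 1 and by 2.97 with 64.

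Sim1, the paralog of Sim2, is a factor of the developing hypothalamus and kidney. Its brightest probe set read 227.7, 232.8 and 272.9 in control and 212.5, 281.4 and 248.7 in PIK3CA shRNA cells, with overlapping groups. The change was 0.01, with a 95% confidence interval from -0.30 to 0.32 and an adjusted p of 0.966. The other Sim1 probe set was dim and scattered, between 6.65 and 42.3 over the 6 arrays.

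**Figure D1:**
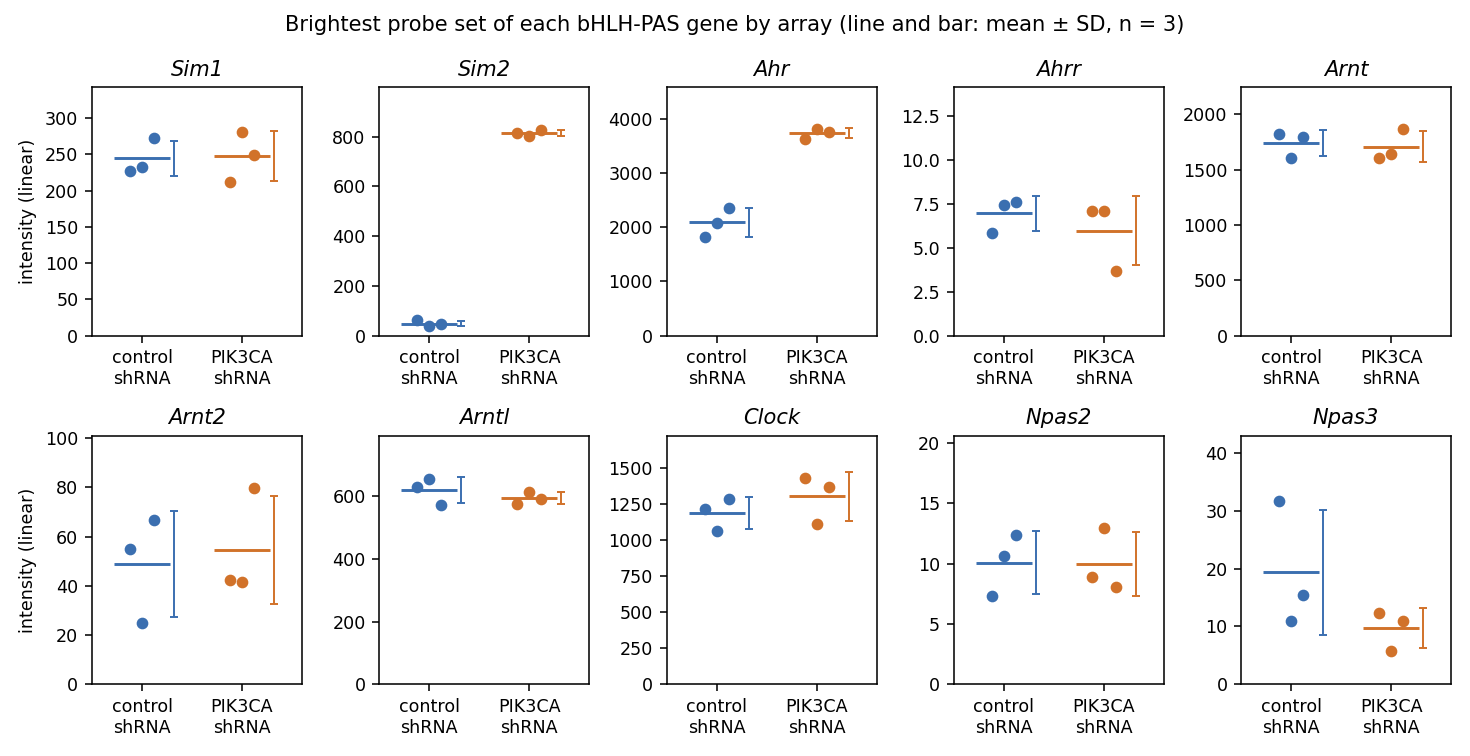
Intensity (linear axis from 0, a separate scale for each gene) of the brightest probe set of each of the 10 bHLH-PAS genes on the 3 control shRNA (blue) and 3 PIK3CA shRNA (orange) arrays, with horizontal lines for means and bars for SD. The groups are apart for Sim2 and Ahr and overlap for the other 8 genes.

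Sim2 lies on mouse chromosome 16, and some of its neighbours differed too. Of the 5 tested genes on each side, by gene order in assembly GRCm38.p6, 3 rose and 0 fell by limma, and the 3 were the genes next to Sim2 on one side: Hlcs, Ripply3 and Pigp. Over all genes tested, 5.88% rose. On the other side 0 of 5 passed, and the smallest adjusted p there was that of Morc3 (0.0589, change 0.23).

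Hlcs, which encodes the enzyme that attaches biotin to carboxylases, read 158.7, 148.1 and 121.4 in control and 274.9, 279.2 and 268.9 in PIK3CA shRNA cells. The rise was 0.88, standard error 0.10, with an adjusted p of 0.00719 in limma. Every PIK3CA shRNA array was above every control array. Ripply3, a transcriptional repressor gene, read 60.3, 6.08 and 14.7 in control and 171.8, 155.7 and 187.9 in PIK3CA shRNA cells. Its rise was 2.33, standard error 0.46, with an adjusted p of 0.0321 in limma, and control replicate 1 was clearly above the other control arrays. The control values of 6.08 and 14.7 were below the pseudocount, and the size depended on it. With a pseudocount of 1 Ripply3 changed by 3.18 and did not pass in limma (adjusted p = 0.0724). With 64 it changed by 1.42 (adjusted p = 0.00967). Pigp, a gene of the machinery that starts glycosylphosphatidylinositol anchors, went from 2033 ± 55.8 to 2568 ± 47.0 (SD, n = 3 each) and rose by 0.33 (adjusted p = 0.0201). Each of the 3 genes had 1 probe set. With 1 array left out, Hlcs passed in 6 of 6 fits, Ripply3 only in the fit without control replicate 1 (adjusted p 0.00570 there and 0.0730 to 0.104 in the other 5) and Pigp in 0 (0.0557 to 0.0713). Cldn14, next to Sim2 on the other side, read 65.5 ± 15.3 and 82.9 ± 22.0 (SD, n = 3 each; adjusted p = 0.487), and Ttc3, beyond Pigp, was at -0.00066.

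**Figure D2:**
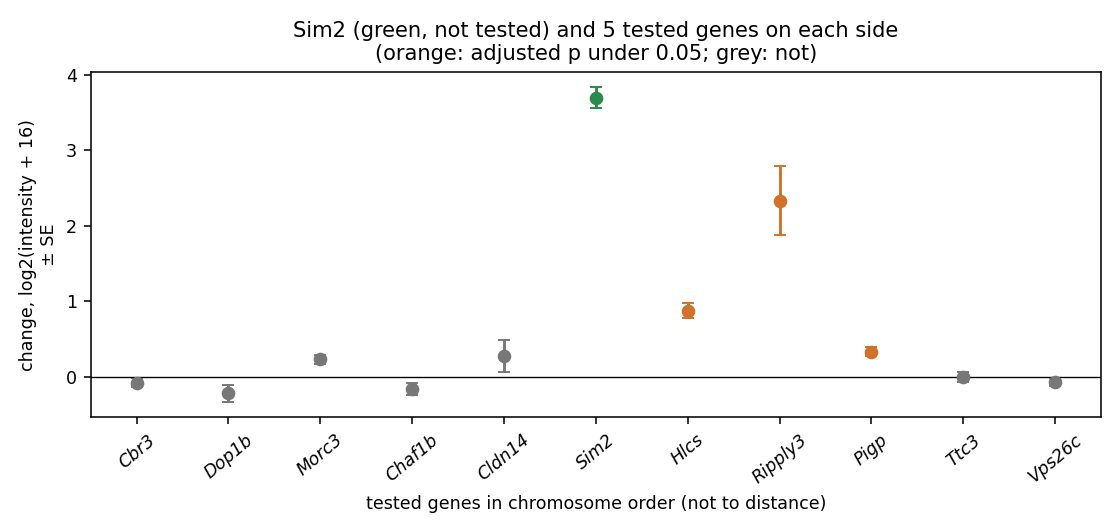
Change of Sim2 and of 5 tested genes on each side in chromosome order (x axis, not to distance), on the log2(intensity + 16) scale with limma standard errors. Hlcs (0.88), Ripply3 (2.33) and Pigp (0.33), in orange, passed the threshold and lie together on one side of Sim2 (3.69, green, not tested).

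The genes whose 6-array profiles were closest to that of Sim2 were Hebp1, Slc43a3, Calml4, Nid1 and Casd1. Likeness was the root mean square difference of log2 values over the 6 arrays after each gene's control mean was taken out, among genes above the median brightness in their higher group. It was 0.071 for Hebp1, 0.102 for Slc43a3, 0.117 for Calml4, 0.218 for Nid1 and 0.224 for Casd1. With 2 groups this measure mainly finds genes with a change of like size, and the order holds for the pseudocount of 16. Hebp1 and Slc43a3 were below that value in control cells. With a pseudocount of 1 the changes were 4.60 for Hebp1 and 5.43 for Slc43a3 against 4.06 for Sim2, and with 64 they were 2.45 and 2.20 against 2.97. Calml4, a calmodulin-like gene, stayed close to Sim2 at both, with 4.03 and 2.92. For Nid1 and Casd1 the likeness rests on the brightest probe set. Other, dimmer probe sets changed by 0.74 and 2.37 for Nid1 and by 1.17 for Casd1. With the mean of probe sets the change was 2.348 for Nid1 and 2.325 for Casd1, against 3.532 for Sim2.

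Ahr, which encodes the aryl hydrocarbon receptor, was the only 1 of the 9 other members to pass the threshold. It read 1824, 2086 and 2353 in control and 3632, 3812 and 3757 in PIK3CA shRNA cells, and the groups did not overlap. Its mean went from 2088 ± 265 to 3734 ± 92.5 (SD, n = 3 each), 179% of control. The rise was 0.84 (95% confidence interval 0.58 to 1.10), with an adjusted p of 0.00881 in limma. The second Ahr probe set was also higher on every PIK3CA shRNA array, at 211 ± 18.3 and 254 ± 12.3 (SD, n = 3 each), a smaller change of 0.25 that did not pass in the fit over all probe sets (adjusted p = 0.200). Exact two-sided permutation tests gave 0.1 for both probe sets, and no smaller value can be had from 3 arrays in each group.

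Ahrr, the AHR repressor, is itself a textbook target of AHR and competes with it for ARNT. Its single probe set read 5.84, 7.43 and 7.62 in control and 7.12, 7.12 and 3.69 in PIK3CA shRNA cells. All 6 values were below the pseudocount and among the dimmest of the array, so the change of -0.07 (95% confidence interval -0.29 to 0.15, adjusted p = 0.701) says little about the transcript. Of 11 genes listed as AHR targets, 8 were measured, and the list was chosen with earlier results of these data known. By limma 4 of the 8 rose and 0 fell (6 higher and 0 lower at unadjusted p under 0.05), where 5.88% of all genes rose. Their median change was 0.36 against -0.01 over all genes.

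Gsta2, a glutathione transferase gene, rose from 67.7 ± 5.88 to 148.3 ± 8.80 (SD, n = 3 each), a change of 0.97 (adjusted p = 0.00263). The glutathione transferase genes of this class are near copies of each other, so its single probe set may also read a relative. Cyp1b1, a cytochrome P450 gene that AHR induces, read 479, 502 and 495 in control and 691, 657 and 674 in PIK3CA shRNA cells and rose by 0.44 (adjusted p = 0.00923). The other Cyp1b1 probe sets gave 0.27 and, for a dim one, -0.11, neither past the threshold, and the mean of the 3 gave 0.20 (adjusted p = 0.168). Aldh3a1, an aldehyde dehydrogenase gene, read 226.7, 218.2 and 221.1 in control and 440.1, 408.8 and 335.8 in PIK3CA shRNA cells. It rose by 0.78 (adjusted p = 0.0119), and 0.0515 without control shRNA replicate 2. Nfe2l2, whose product NRF2 also drives Gsta2, Aldh3a1 and Nqo1, rose by 0.28 (adjusted p = 0.0300), but in 0 of the 6 fits with 1 array left out (adjusted p 0.0730 to 0.104), and its second, dim probe set read -0.52.

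Cyp1a1, the most inducible AHR target known, read 119.4, 95.6 and 110.6 in control and 157.9, 96.8 and 119.1 in PIK3CA shRNA cells, with overlapping groups (change 0.16, adjusted p = 0.643). Cyp1a2 was at 9.07 in control and 14.3 in PIK3CA shRNA cells, below the pseudocount. Nqo1 (0.46, adjusted p = 0.0665) and Tiparp (0.21, adjusted p = 0.106) were higher on every PIK3CA shRNA array without passing. Of 10 listed genes of the AHR chaperone complex and of enzymes that make tryptophan-derived ligands, 7 were measured. Among these 7, 0 rose or fell by limma (0 higher and 1 lower at unadjusted p under 0.05), and 2 were above the median brightness. The enzyme genes Il4i1 (-0.21), Kynu (-0.22), Kmo (0.17) and Tdo2 (-0.13) had adjusted p-values of 0.189 to 0.590. The chaperone gene Hsp90aa1, the only measured gene of the complex, changed by 0.0021.

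AHR paired with ARNT binds the core GCGTG, which was searched on both strands in the 250 bases before each transcription start in the RefSeq table (GRCm38.p6). Of all 32851 starts, 28.2% held it. For the members 5 of 11 starts, from 8 genes, held it, and for the AHR targets 4 of 9: Cyp1b1 and Gsta2, which rose, and Cyp1a1 and Tiparp, which did not pass. Nfe2l2, which rose, held none. No start was listed for Sim2, Ahr, Aldh3a1 and Ugt1a6b, so these genes could not be searched. The stretches before Ahrr, which stayed dim, and before Cyp1b1 and Gsta2, which rose, are printed 5′ to 3′ on the gene's strand, with GCGTG or its reverse complement CACGC in capitals.
Ahrr: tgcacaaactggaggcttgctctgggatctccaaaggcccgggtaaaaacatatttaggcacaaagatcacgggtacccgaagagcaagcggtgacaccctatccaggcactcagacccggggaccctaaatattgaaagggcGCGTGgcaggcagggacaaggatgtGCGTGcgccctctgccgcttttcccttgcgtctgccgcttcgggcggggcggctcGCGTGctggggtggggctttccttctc
Cyp1b1: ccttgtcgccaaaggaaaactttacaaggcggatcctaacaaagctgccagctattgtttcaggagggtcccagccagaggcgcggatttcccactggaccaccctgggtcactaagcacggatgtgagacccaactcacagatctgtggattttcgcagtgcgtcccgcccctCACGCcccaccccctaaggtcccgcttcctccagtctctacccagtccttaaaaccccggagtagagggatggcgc
Gsta2: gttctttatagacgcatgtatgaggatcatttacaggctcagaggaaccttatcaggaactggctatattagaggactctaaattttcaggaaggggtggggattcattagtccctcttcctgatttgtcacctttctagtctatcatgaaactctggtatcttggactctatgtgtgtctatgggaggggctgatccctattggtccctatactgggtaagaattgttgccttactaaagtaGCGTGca
They lie on the minus strand at chr13:74292332-74292581, chr17:79715062-79715311 and chr9:78347146-78347395. Ahrr has 3 matches, which begin 107, 82 and 27 bases before the start, while Cyp1b1 has 1 at 76 and Gsta2 1 at 7. A match describes the letters and not a bound site. A start without a match may have sites outside the 250 bases, which were not searched.

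Arnt and Arnt2, the shared partners, did not pass. Arnt had 5 probe sets, of which the brightest read 1820, 1604 and 1792 in control and 1610, 1646 and 1867 in PIK3CA shRNA cells. Its change was -0.03, with a 95% confidence interval from -0.25 to 0.19 (adjusted p = 0.886), and the other 4 probe sets lay between 0.02 and 0.25 with overlapping groups. A change of Arnt as large as that of Ahr lies outside this interval. Arnt2, the partner made mainly in neurons and kidney, was dim and its 3 probe sets disagreed. The brightest on average gave 54.9, 24.9 and 66.8 in control and 42.3, 41.3 and 79.9 in PIK3CA shRNA cells (change 0.14, 95% confidence interval -0.69 to 0.97). Another gave 66.0, 52.4 and 19.9 in control and 7.49, 13.1 and 4.08 in PIK3CA shRNA cells, a change of -1.29 that did not pass over all probe sets (adjusted p = 0.0980). The third was below 12 on all 6 arrays.

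Clock and Arntl, the activating pair of the circadian loop, did not pass. Arntl read 631, 656 and 573 in control and 576, 615 and 592 in PIK3CA shRNA cells (change -0.06, 95% confidence interval -0.24 to 0.12, adjusted p = 0.681), and its second probe set changed by -0.0072. The 4 Clock probe sets pointed in different directions. The brightest read 1217, 1067 and 1285 in control and 1434, 1112 and 1371 in PIK3CA shRNA cells (change 0.13, adjusted p = 0.593). The other 3 were lower, by -0.15, -0.29 and -0.56. The last of these read 211.5, 191.5 and 247.7 in control and 173.2, 124.4 and 130.6 in PIK3CA shRNA cells, with groups that did not overlap (adjusted p over all probe sets = 0.112).

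Npas2, which can stand in for CLOCK, read 7.29 to 12.3 in control and 8.07 to 13.0 in PIK3CA shRNA cells, below the pseudocount on all 6 arrays, as did its second probe set. Npas3, a factor of neurons and developing lung, had 4 dim probe sets. The brightest read 31.7, 10.9 and 15.5 in control and 12.4, 5.82 and 10.9 in PIK3CA shRNA cells (change -0.43, 95% confidence interval -1.01 to 0.16, adjusted p = 0.329). The control values spread over a range wider than the difference of the means, and control replicate 1 was the highest.

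By the fit over genes 1 of the 9 members other than Sim2 was called, Ahr, where 11.5% of all genes were called. The groups did not overlap in 1 of the 9, again Ahr, where 33.1% of all genes did not overlap, and 5 of the 9 were above the median brightness. Their median change was -0.0060, against -0.011 over all genes. Among their 25 probe sets the groups did not overlap in 5 (2 higher, both Ahr, and 3 lower, from Arnt2 and Clock), where 27.3% of all probe sets did not overlap, and 1 passed, where 4.94% passed. These shares are given as the background only, since the family was picked on this comparison.

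**Figure D3:**
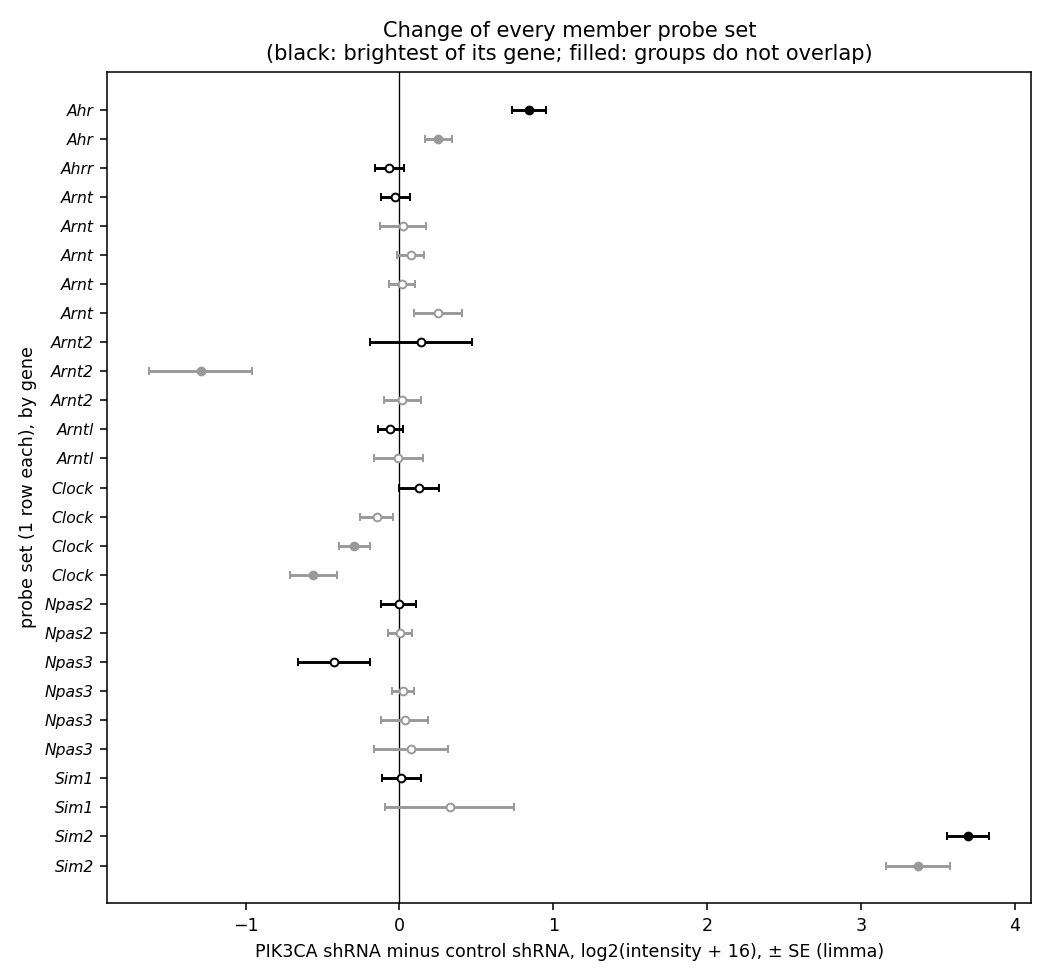
Change of each of the 27 member probe sets (1 row each, ordered within a gene by control intensity) on the log2(intensity + 16) scale with limma standard errors; black marks the brightest probe set of a gene and filled points mark groups that do not overlap. Both Sim2 probe sets lie above 3, both Ahr probe sets above 0, and the Clock and Arnt2 probe sets on both sides of 0.

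Among 9 other bHLH-PAS genes and coactivators, 1 rose and 1 fell by limma (2 and 2 at unadjusted p under 0.05), where 11.5% of all genes were called. Epas1, which encodes the oxygen-regulated subunit HIF-2-alpha, read 135.2, 144.1 and 173.3 in control and 292.8, 289.4 and 344.3 in PIK3CA shRNA cells. Its rise was 0.96, standard error 0.12, with an adjusted p of 0.00807 in limma, and its second, dim probe set was also higher on every PIK3CA shRNA array (0.83). Ncoa1, a steroid receptor coactivator gene with a PAS domain, went from 793 ± 49.2 to 519 ± 34.7 (SD, n = 3 each) and fell by 0.60 on the log2 scale (adjusted p = 0.0110). Its other probe sets changed by -0.30 and -0.59 without passing. Hif1a, the oxygen-regulated subunit of HIF-1, went from 8103 to 7058 (change -0.20, adjusted p = 0.0773). Its other 3 probe sets were lower too, and 1 of them passed over all probe sets, going from 2385 ± 68.5 to 1795 ± 71.1 (SD, n = 3 each; change -0.41, adjusted p = 0.0366). By its brightest probe set Hif1a passed with a pseudocount of 64 (0.0438), with dim genes left out (0.0414) and with an intensity trend and robust prior (0.00216). Ncoa3 was at 0.29 (adjusted p = 0.187). Genes of the HIF oxygen sensors and of the VHL ubiquitin ligase gave 0 of 8 higher and 1 lower by limma (1 and 1 at unadjusted p under 0.05), where 5.62% of all genes fell. The 1 was Egln1 at -0.78 (adjusted p = 0.0179). Its adjusted p was 0.0633 without control replicate 1, 0.0681 without PIK3CA shRNA replicate 1 and 0.0573 without PIK3CA shRNA replicate 2. The sensor gene Egln3 (0.16) and the ligase genes Elob (-0.09) and Cul2 (0.05) did not pass. The mean of the Egln3 probe sets did pass in the limma fit over genes (0.32, adjusted p = 0.0421). Of 13 HIF target genes 2 rose and 1 fell by limma (3 and 3 at unadjusted p under 0.05), against the same 11.5% called over all genes. The fall was in Ankrd37, a hypoxia-induced ankyrin repeat gene, from 811 ± 36.8 to 387 ± 9.22 (SD, n = 3 each; change -1.04, adjusted p = 0.000805). Car9, a carbonic anhydrase gene, rose by 0.60 (adjusted p = 0.00584), and Ddit4, an inhibitor of mTOR signalling, was at -0.20 (adjusted p = 0.0817). In limma Ddit4 passed with a pseudocount of 64 (0.0480), with dim genes left out (0.0439) and with an intensity trend and robust prior (0.0116). The histone demethylase gene Kdm3a rose by 0.37 (adjusted p = 0.0256), a call kept in 0 of 6 fits with 1 array left out (0.0553 to 0.0899).

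Of the 24 measured circadian genes that act with CLOCK and ARNTL, 3 were called, a share near the 11.5% of all genes. Of 12 repressor and nuclear receptor genes 0 rose and 1 fell by limma (0 and 2 at unadjusted p under 0.05), with a median change of -0.19. The 1 was Per3, a period gene, which went from 311 ± 7.67 to 232 ± 14.4 (SD, n = 3 each; change -0.40, adjusted p = 0.0198). With 1 array left out it passed only without PIK3CA shRNA replicate 3 (adjusted p 0.0420 there and up to 0.0751 otherwise), and the other 5 Per3 probe sets lay between -0.61 and 0.01 and did not pass. Bhlhe41 (-0.26, adjusted p = 0.178), Rorb (-0.31, adjusted p = 0.209) and Nr1d1 (-0.30, adjusted p = 0.249) did not pass. Of 12 output and protein turnover genes 1 rose and 1 fell, and Timeless (-0.23) and Fbxl21 (0.22) did not pass. Noct, a rhythmic gene for a phosphatase of nicotinamide dinucleotides, read 556, 540 and 513 in control and 350, 309 and 360 in PIK3CA shRNA cells and fell by 0.64 on the log2 scale (adjusted p = 0.00869). Csnk1e, a kinase gene whose product marks PER proteins for turnover, rose by 0.37 (adjusted p = 0.0189), a call that with 1 array left out was kept only without control replicate 1 (adjusted p 0.0425 there and up to 0.0751 otherwise). A second Csnk1e probe set also rose (0.41) and the third, dim one was at -0.0073. Over all genes tested 5.62% fell.

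**Figure D4:**
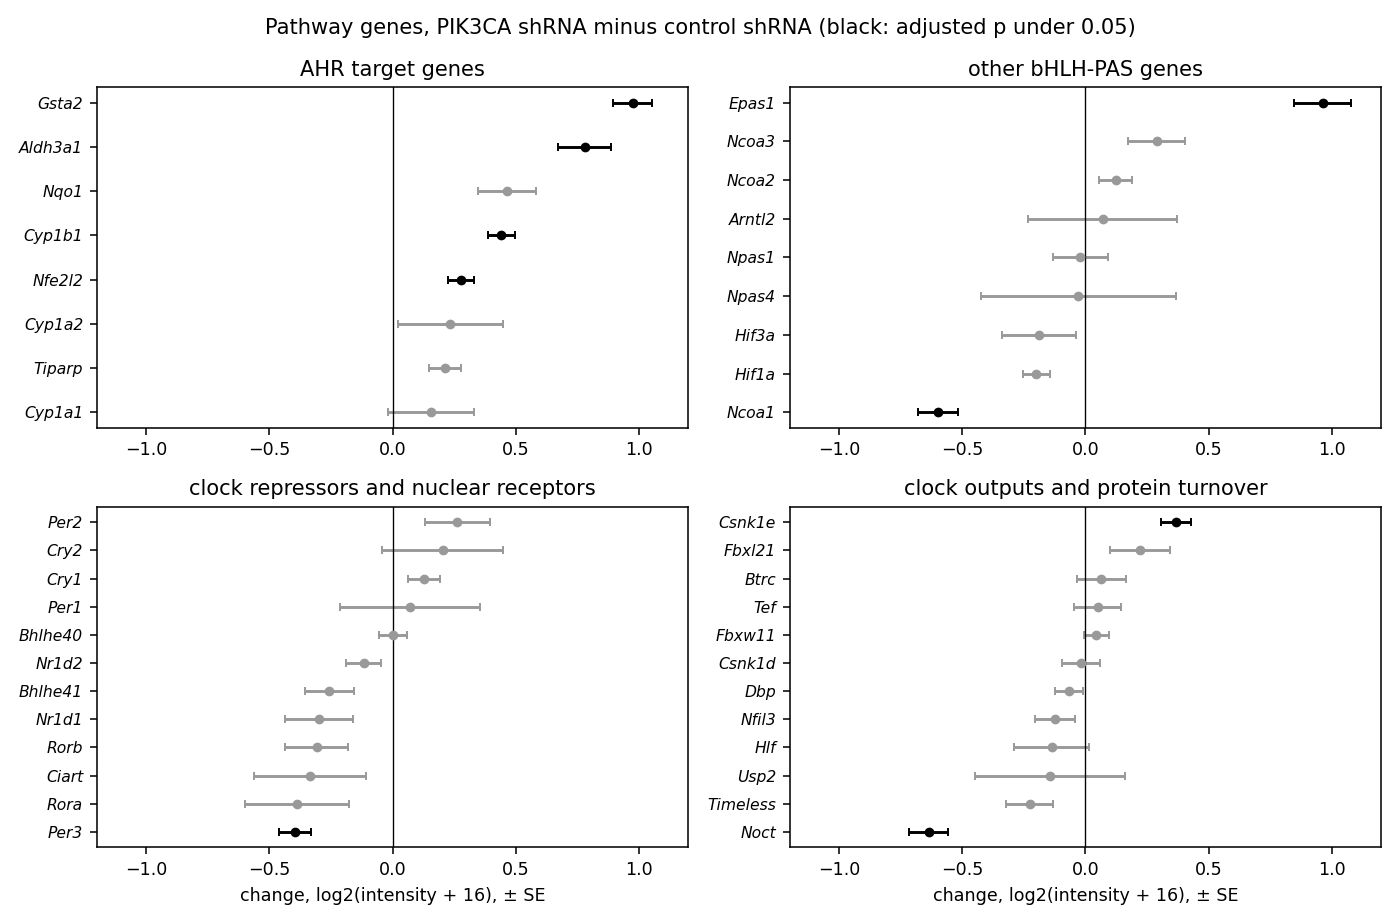
Change of the measured genes of 4 lists on the log2(intensity + 16) scale with limma standard errors, black where the adjusted p was below 0.05. By their brightest probe sets all 8 AHR target genes lie above 0 and 4 of them passed, while the circadian lists lie on both sides of 0 with 3 of 24 genes past the threshold.

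Genes reported downstream of SIM1 or SIM2 in other tissues were few and mostly dim, with 2 of 11 above the median brightness. By limma 0 rose and 2 fell (0 and 3 at unadjusted p under 0.05), where 5.62% of all genes fell. Snai2, which encodes the mesenchymal factor SLUG, was at -0.49 (adjusted p = 0.00767) by its brightest probe set, and its other probe set read 1274 ± 31.2 and 1714 ± 726 (SD, n = 3 each), a change of 0.33 that did not pass. Mmp3, the stromelysin gene, read 127 and 87.1 and fell by 0.48 on the log2 scale (adjusted p = 0.0403), a call that with 1 array left out was kept only without PIK3CA shRNA replicate 1 (0.0494 there and up to 0.120 otherwise). Myom2 (-0.85, adjusted p = 0.151) and Crh (-0.62, adjusted p = 0.288) were dim and did not pass. Another dim Myom2 probe set passed over all probe sets, from 16.9 ± 2.33 to 8.34 ± 0.253 (SD, n = 3 each; change -0.43, adjusted p = 0.0422), as did the mean of its probe sets in the fit over genes (-0.47, adjusted p = 0.0406).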

How the data were processed

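Per the labels, biotin-labelled RNA of 6 samples was read on Affymetrix mouse arrays. The deposited values are linear intensities. Their quartiles were nearly equal on all 6 arrays (lower 37.5 to 37.6, upper 533 to 535), so the authors had normalized them between arrays, by a method not given in the sources used here. Intensities were scaled to a common median (factors 0.99773 to 1.0019) and taken to log2(intensity + 16), without the 64 control probe sets. Of the others, 34945 had 1 gene symbol in the platform annotation, 932 several and 9160 none. No detection calls were used. Precision is limited by the 3 arrays per group.

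The test was limma 3.58.1 (R 4.3.3), two-sided, with lmFit, eBayes and no block, over 18193 genes, each by the single-symbol probe set with the highest mean, and over all probe sets for statements on a probe set. Exact permutation tests ran over the 20 assignments of arrays. The members and lists were chosen with earlier results of these data known. Named were all members; up to 4 genes per list by adjusted p; neighbours of Sim2 past the threshold; and 5 genes most like Sim2. Other neighbours, Cyp1a1, Cyp1a2, Nqo1, Tiparp, Hsp90aa1, markers and other single list genes were added after their values were seen. Alternatives were the replicate number as a block, normalization, pseudocount, a filter on dim genes, the probe set rule, the variance model, array weights and leaving out each array. The fit was tested on simulated data with 200 changed genes among 18193. It recovered 23.3% of the changes of 0.5, 69.4% of those of 1 and 88.5% of those of 2 on the log2 scale. Of 129 genes called, 3 were false. A gene that did not pass may therefore still have changed. Same-numbered samples did not deviate together, so no pairing was used. Figures used matplotlib 3.10.9 in Python 3.11.15.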

Additional observations from a re-analysis of the deposited data

How the results depend on the processing

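The count of genes past the threshold was 2093, and it was 413 with the replicate number as a block, 3192 with an intensity trend and robust prior, and 945 to 1138 with 1 array left out. The replicate numbers are not backed by a pairing in the data, since the correlations of deviations between same-numbered samples were 0.0484, -0.0208 and -0.0205. With the replicate block 0 of the 9 members other than Sim2 passed in limma (2 at unadjusted p under 0.05). Ahr had an adjusted p of 0.0536 there, and it passed under each of the other 15 alternatives run, with a change of 0.55 to 0.93. Leaving out 1 array kept 1 member called in each of the 6 fits. Of the AHR targets that rose, only Gsta2 passed in limma with the replicate block (adjusted p = 0.0286). Cyp1b1 (0.0785), Aldh3a1 (0.0654) and Nfe2l2 (0.13) did not pass with that block. Pik3ca fell under all 16 alternatives, at -0.95 to -0.92 with 1 array left out. Sim2 was between 2.97 and 4.06 and moved by more than its replicate spread only with the other pseudocounts. Nfe2l2 reversed to -0.12 with the mean of its probe sets and to -0.52 when the probe set with the widest interquartile range stood for the gene, which is its dim one. Csnk1e reversed to -0.0073 under that rule. Over 49 named genes other than Sim2 and 16 alternatives, 698 of 778 values kept their side of the threshold. Of the others, 69 lost it (14 of them under the block), 8 gained it and 3 changed sign with a call in either fit. A change of sign where neither fit passed was counted as kept. With the mean of probe sets this held for the members Clock (0.13 to -0.22), Arnt2 (0.14 to -0.38) and Arnt (-0.03 to 0.07). It also held there for Cul2 (0.05 to -0.06) and Tdo2 (-0.13 to 0.03). Members below the pseudocount, such as Ahrr and Npas2, are limited by signal near the bottom of the array.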

Other observations

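Arntl2, a paralog of Arntl, is represented by a probe set with overlapping groups (229 ± 43.6 in control and 251 ± 93.1 in PIK3CA shRNA cells, SD, n = 3 each). Its second, dimmer probe set read 46.7 ± 5.06 and 83.3 ± 14.1 (SD, n = 3 each), and its groups did not overlap. The change was 0.66 with a limma adjusted p over all probe sets of 0.0540. This probe set was singled out after its values were seen.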
